A study of Mus musculus with 10 samples.

Results

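CNS-associated macrophages populate the brain's borders: the meninges, the spaces around blood vessels and the choroid plexus. Their unmodified transcriptome was read from the 3 libraries labelled wild type, out of 10 libraries in the series, and those 3 were chosen by the genotype in their labels and not by any measured value. Each library came from an individual C57BL/6N mouse aged 6 to 8 weeks, kept under specific-pathogen-free conditions and left untreated, that carried no Mrc1-CreERT2 allele. The cells had been sorted by flow cytometry from brain tissue, and no source used here gives the gate. The other 7 libraries came from mice labelled heterozygous or homozygous for that allele. Their levels were not used, and their counts entered only an alternative set of scaling factors. In the sample titles wild-type replicates 1 and 2 carry the letter m and replicate 3 the letter f, which the labels do not explain. Xist, the RNA that silences an X chromosome in females, stood at 0, 0 and 124 CPM in replicates 1, 2 and 3, and the Y-linked Ddx3y at 77.3, 45.5 and 0 CPM. By these transcripts replicate 3 came from a female and replicates 1 and 2 from males. Whatever sets replicate 3 apart from the others therefore cannot be told apart from sex.

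Border macrophages sit between blood, cerebrospinal fluid and brain tissue. They take up material from those fluids through scavenger receptors, degrade it in lysosomes and can present peptides on MHC class II. They depend on the growth factor receptor Csf1r and on the transcription factor PU.1, and they share much of their programme with microglia, the macrophages inside the brain tissue. Genes used to tell them from microglia include the mannose receptor Mrc1, the hyaluronan receptor Lyve1 and the chemokine Pf4.

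All 8 genes given as markers of these cells were abundant in all 3 libraries. Levels are in CPM, a gene's counts per 1000000 counts of its library, scaled with trimmed-mean-of-M-values factors, and are given for replicates 1, 2 and 3 in that order. Apoe, a lipid carrier, stood at 32642, 39577 and 36308 CPM and had rank 1 among the 17748 genes with a count in any of the 3 libraries. Mrc1 stood at 3758, 3053 and 3608 CPM (rank 27). Dab2, an adaptor protein of endocytosis, stood at 2544, 3217 and 2630.5 CPM (rank 31). Apoe and Dab2 were highest in replicate 2, and Mrc1 was lowest there.

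F13a1, the catalytic chain of coagulation factor XIII, stood at 2140, 3396 and 2387 CPM (rank 34) and was highest in replicate 2. Stab1, a scavenger receptor that clears modified proteins and dying cells, stood at 2271, 2336 and 2422 CPM (rank 39). Pf4, a CXC chemokine also known from platelets, stood at 1994, 1919 and 1706 CPM (rank 50). Cd163, the receptor for haemoglobin bound to haptoglobin, stood at 1113, 1258 and 1011 CPM (rank 92), and Lyve1 at 629.6, 625 and 634 CPM (rank 179). Lyve1 and Stab1 varied least, with 629.5 ± 4.11 CPM (SD, n = 3) and 2343 ± 76.2 CPM (SD, n = 3), and F13a1 varied most in proportion, with 2641 ± 666 CPM (SD, n = 3). All 8 were thus among the 200 most abundant genes, as the cells' label would have it.

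A CPM value counts fragments, and a long transcript yields more of them. A rank by CPM therefore orders genes by their share of the counts. Orders, thresholds and sums given in CPM, here and below, are likewise not corrected for length. Where CPM per kilobase is named, levels were first divided by the length of the gene's merged exons in GENCODE M21. On that scale Apoe led the markers with 16920.3 ± 1623 CPM per kilobase (SD, n = 3), followed by Pf4 with 2598 ± 207, and neither overlapped the next marker. Mrc1 had 545 ± 58.3, F13a1 392 ± 98.8 CPM per kilobase, and Dab2, next below, had rank 97. Neighbours among these 3 overlapped over the libraries. Stab1 (228 ± 7.40), Lyve1 (216 ± 1.41) and Cd163 (206 ± 22.7) came last. Cd163 overlapped both Stab1 and Lyve1, which did not overlap each other. Stab1, with rank 39 by CPM, had rank 194 per kilobase, whereas Pf4 moved from rank 50 to rank 14. Orders per kilobase, here and below, depended on the length used. An alternative chosen after seeing the data divided by the median length of each gene's transcripts. Apoe (rank 1) and Pf4 (rank 23) still led the markers. Dab2 (45) and Stab1 (46) then stood above Mrc1 (115), F13a1 (123), Lyve1 (408) and Cd163 (571).

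The promoters of abundant genes were searched for the letters of the PU.1 core, GAGGAAGT, on both strands, because Spi1, the gene of PU.1, is one of the lineage factors measured below. RefSeq's table on GRCm38.p6 gave a promoter window, 250 bases before to 50 after a start site, for 153 of the 200 most abundant genes, and 10 of them (6.54%) held these letters. The share was 4.01% of the 9075 genes with a mean of at least 1 CPM and 3.69% of all 27025 genes in the table. Among the 8 markers, 7 had a window and 2 held the letters, Pf4 and F13a1. Of 7 further abundant genes looked up by name, C1qc held them too. The AP-1 letters TGANTCA, also read on both strands, were in 10.5% of the same 153 genes, in 5.97% of genes with at least 1 CPM, in 8.97% of all genes and in none of the markers' windows. The TATA letters TATAAA were in 15.7%, 8.60% and 15.7% of these 3 sets. All 3 motifs were thus more frequent in the most abundant genes than among genes with at least 1 CPM. A match of letters is a description and not a site of binding.

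The windows of Pf4, F13a1 and C1qc are printed because they belong to highly abundant genes and hold the PU.1 letters, which are in capitals. They are at chr5:90772185-90772484 on the plus strand, chr13:37049164-37049463 on the minus strand and chr4:136892865-136893164 on the minus strand of GRCm38.p6, each written 5′ to 3′ along its gene. No source used here gives the build of the counts. In Pf4 and C1qc the capitals read ACTTCCTC, which is the motif on the other strand.
Pf4: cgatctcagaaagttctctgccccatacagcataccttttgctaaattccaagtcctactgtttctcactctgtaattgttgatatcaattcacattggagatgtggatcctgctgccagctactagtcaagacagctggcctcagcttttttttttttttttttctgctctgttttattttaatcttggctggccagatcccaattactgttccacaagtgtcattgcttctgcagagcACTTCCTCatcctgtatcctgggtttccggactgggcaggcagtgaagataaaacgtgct
F13a1: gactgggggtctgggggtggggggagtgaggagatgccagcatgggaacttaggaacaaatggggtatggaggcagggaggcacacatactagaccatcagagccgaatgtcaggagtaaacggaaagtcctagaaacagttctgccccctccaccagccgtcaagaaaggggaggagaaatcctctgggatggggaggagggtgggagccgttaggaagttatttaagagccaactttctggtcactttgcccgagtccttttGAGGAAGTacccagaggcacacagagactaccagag
C1qc: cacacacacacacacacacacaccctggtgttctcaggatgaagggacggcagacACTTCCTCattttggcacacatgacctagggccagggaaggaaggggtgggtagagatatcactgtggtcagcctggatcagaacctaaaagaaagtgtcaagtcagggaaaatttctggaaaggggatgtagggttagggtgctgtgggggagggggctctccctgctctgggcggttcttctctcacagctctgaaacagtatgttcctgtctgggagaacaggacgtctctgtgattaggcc
The match begins at base 241 of the Pf4 window, base 265 of the F13a1 window and base 56 of the C1qc window, counted from 1 at the 5′ end. The match thus ends just before the start site in Pf4, lies just after it in F13a1 and lies further upstream in C1qc. F13a1 has another window in the table, which does not hold the letters.

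The 3 libraries held 28668839, 32931690 and 32929230 counts. Genes with at least 1 count numbered 13639, 13670 and 14827, and 9061 genes reached 1 CPM in all 3. The single gene Apoe took 3.34, 3.95 and 3.56% of the counts, the 10 most abundant genes of each library took 12.5, 13.1 and 12.9%, and 50% of the counts came from 371 to 409 genes. Mitochondrially encoded genes took 0.749, 0.503 and 0.448% and ribosomal protein genes, their pseudogenes included, 1.74, 1.31 and 1.28%. Spread between mice depended on level. The median coefficient of variation was 12.01% over the 97 genes with a mean of at least 1000 CPM, 17.8% over the 1799 genes with at least 100 CPM, 36.4% from 10 to 100 CPM and 95.6% from 1 to 10 CPM. Levels under 10 CPM are therefore given as values of single libraries and carry little weight. The labels name individual mice, so the spread covers mice and preparation together.

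The most abundant transcripts were those of lipid transport, lysosomes, complement C1q, MHC class II and the actin cytoskeleton. Of the 30 genes with the highest mean CPM, 27 were among the first 30 in every library, and of the first 50, 45 were. Apoe, at 36176 ± 3469 CPM (SD, n = 3), was followed by Tmsb4x, an actin-sequestering peptide, at 11837 ± 776 CPM, by Ctsb, a lysosomal cysteine protease, at 10979.9 ± 1116 CPM, and by Lyz2, the lysozyme of myeloid cells, at 10927 ± 956 CPM. Csf1r, the receptor for the macrophage growth factors CSF1 and IL-34, had rank 5 with 9393, 10630.4 and 11427 CPM in replicates 1, 2 and 3.

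The chains of C1q, which starts the classical complement pathway, were all among the first 20. C1qb stood at 7949, 7949 and 9185 CPM, C1qc at 7599, 8061 and 9422 CPM and C1qa at 5887, 5993 and 5803 CPM. Together they held 22616 ± 1579.8 CPM (SD, n = 3), or 2.14% to 2.44% of the scaled counts. C1qb and C1qc were highest in replicate 3, and C1qa was the most even of the 3.

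Lysosomal genes were prominent near the top. Of 35 listed genes of lysosomal membranes and hydrolases, 12 were among the first 50 and 19 among the first 100, and their median was 1327 CPM, where the median over all genes with a count was 6.66 CPM. The cathepsins Ctsc (6189 ± 1227 CPM), Ctss (5140.4 ± 949 CPM) and Ctsd (4649.5 ± 1359 CPM) and the progranulin gene Grn (4552 ± 266 CPM) were among the 30 (SD, n = 3 each). Only Ctsk of the list had no count in any of the 3 libraries, which allows a level of up to 0.0317 CPM over the group by the limit of 3 counts. Such limits cover counting error only, since PCR copies are not separate molecules.

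MHC class II genes were abundant and differed between the mice more than the median gene at that level. Cd74, the invariant chain that guides class II molecules, stood at 12725, 11017 and 7270.3 CPM, H2-Ab1 at 7902, 6013 and 3819 CPM, H2-Aa at 6673, 4668 and 3082 CPM and H2-Eb1 at 4532, 3207 and 2017 CPM. Each of the 4 was highest in replicate 1 and lowest in replicate 3. Their sum was 31832, 24905 and 16188 CPM. The exchange factors H2-DMa (509, 478 and 431 CPM) and H2-DMb1 (414, 441 and 329.8 CPM) were more even, and Ciita, the master regulator of class II genes, stood at 95.6, 40.9 and 18.3 CPM.

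The remaining genes of the first 30 were of iron storage, antigen presentation on class I, selenium and membrane biology. Fth1 and Ftl1, the chains of ferritin, stood at 6349 ± 306 CPM and 5010.5 ± 47.9 CPM, and Trf, transferrin, at 5440 ± 784 CPM. Selenop, a secreted selenium carrier, stood at 6478 ± 80.9 CPM and was, with Ftl1, among the most even genes. B2m and H2-D1 of class I stood at 3829 ± 233 CPM and 3576 ± 529 CPM. Itm2b (9382 ± 722 CPM) and Serinc3 (8163 ± 442 CPM) are membrane proteins, Cst3 (9163 ± 1524 CPM) is a secreted cathepsin inhibitor, Actb (10001 ± 1075 CPM) is cytoplasmic actin and Laptm5 (3364 ± 298 CPM) a lysosomal membrane protein. Fcrls, an Fc receptor-like gene best known from microglia, stood at 4545 ± 597 CPM. Errors in this paragraph are SDs over 3 libraries. Ferritin, class I and lysozyme genes have near-identical relatives or pseudogenes with which reads could be shared.

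Per kilobase the order changed toward short transcripts. Apoe led with 16920.3 ± 1623 CPM per kilobase (SD, n = 3) and did not overlap Tmsb4x (8634 ± 566). Tmsb4x, Lyz2 (8303 ± 727), C1qb (7685 ± 656), Cst3 (7238 ± 1204), Cd74 (6157 ± 1662) and C1qa (5668 ± 91.5) followed, and each overlapped its neighbour in that order. Ctsb went from rank 3 by CPM to rank 24 per kilobase and Csf1r from 5 to 23. By the median transcript length the ranks were 9 for Ctsb and 15 for Csf1r. Of the 50 genes highest by CPM, 37 were also among the 50 highest per kilobase.

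**Figure D1:**
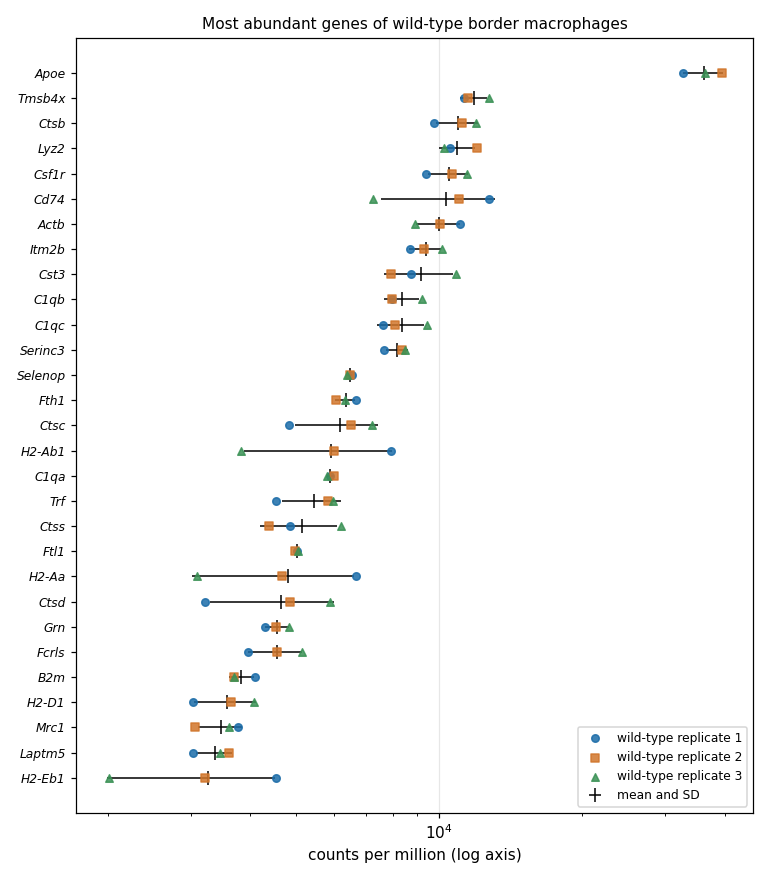
Levels of 29 of the 30 most abundant genes in wild-type border macrophages, in CPM on a log axis. Coloured symbols are the 3 libraries and black bars the mean and SD. Apoe stands alone at the top, and Cd74, H2-Ab1, H2-Aa and H2-Eb1 show wide gaps between libraries.

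Receptors and other membrane proteins were drawn from 9 lists holding 220 different genes, of which 193 reached a mean of 1 CPM, 123 reached 100 CPM and 26 reached 1000 CPM. Their median was 133 CPM. By comparison 10.1% of all genes with a count reached 100 CPM. The lists hold genes that these cells are known for, so the gap describes the choice of genes as well as the cells.

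Receptors that take up material were led by Mrc1 and Stab1, given above. Cd68, a membrane glycoprotein of lysosomes, stood at 1484, 1518 and 1529 CPM. Of 25 scavenger and endocytic receptors, 13 reached 100 CPM. Cd36, a fatty acid translocase, stood at 335, 471 and 399 CPM, Msr1, the class A scavenger receptor, at 234, 267 and 335 CPM, and Folr2, a folate receptor, at 167, 135 and 137 CPM. Marco and Olr1 had no count in any of the 3 libraries, and Stab2, the relative of Stab1, stood at 0, 0 and 7.24 CPM.

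C-type lectins and siglecs reached 100 CPM in 15 of 23 genes and 1000 CPM in none. Mgl2 and Clec10a, which bind galactose-type sugars, stood at 557, 580.2 and 720.1 CPM and 614, 540.3 and 428 CPM. Clec4n, which encodes Dectin-2, stood at 422, 408 and 372 CPM, and Cd209f at 200.1, 410.1 and 367 CPM. Siglec1, a sialic acid receptor, stood at 441, 272 and 242 CPM and was highest in replicate 1. Clec4e had no count. Genes of the Clec4a and Cd209 families are near copies of each other, and how their reads were divided is not stated.

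Fc and complement receptors were abundant. Fcer1g, the shared signalling chain of Fc receptors, stood at 2078, 1939 and 2085 CPM and Fcgr3, a low-affinity IgG receptor, at 1844, 1829.7 and 2289.6 CPM. The inhibitory Fcgr2b (1113, 1293 and 1381 CPM) and the neonatal receptor Fcgrt (1082, 1618 and 1492 CPM) also passed 1000 CPM in all 3 libraries, and the high-affinity Fcgr1 stood at 737, 578 and 649 CPM. The anaphylatoxin receptors C3ar1 and C5ar1 stood at 1566, 1695 and 1499 CPM and 1089, 1609 and 913 CPM. Itgam, the CD11b chain of complement receptor 3, stood at 84.1, 96.1 and 88.1 CPM, its partner Itgb2 stood at 283, 309 and 412 CPM, and Itgax, the CD11c chain, had no count.

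G protein-coupled receptors were led by Cx3cr1, the fractalkine receptor, at 2185, 2552 and 3426 CPM, and by Adgre1, which encodes F4/80, at 2100.2, 2869 and 3055 CPM. The nucleotide receptors P2ry13 (605, 820.3 and 1157 CPM), P2ry12 (505, 642 and 1273 CPM) and P2ry6 (653, 529 and 545 CPM) were all present. Ccr1 stood at 611, 650.1 and 523 CPM and Ccr2, a chemokine receptor of monocyte-derived cells, at 68.2, 160.1 and 159 CPM. Ccr7 had no count. Cx3cr1, Adgre1, P2ry12 and P2ry13 were each highest in replicate 3 and lowest in replicate 1, whereas P2ry6 was highest in replicate 1.

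Among growth factor and cytokine receptors, Csf1r was followed by Ifngr1, a chain of the interferon gamma receptor, at 1063, 1350.2 and 1627 CPM, by Nrp1, a co-receptor for VEGF and semaphorins, at 1136, 1184 and 1230.3 CPM, and by Tgfbr2, a TGF-beta receptor, at 833, 1075 and 1041 CPM. Both chains of the IL-10 receptor were detected, Il10rb at 739, 657 and 645 CPM and Il10ra at 352, 345 and 312 CPM. Il4ra stood at 637, 720.4 and 529.5 CPM and Il13ra1 at 346, 490.4 and 388 CPM. Il1r1, Flt1 and Tgfbr3 had no count. Of 37 such genes, 22 reached 100 CPM.

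Pattern-recognition and TREM-family genes included Sirpa, which binds CD47, at 1593, 1861 and 1892 CPM, the adaptor Tyrobp at 1726, 1475 and 1569 CPM, and Cd14, a co-receptor for lipopolysaccharide, at 929, 856 and 1051 CPM. Trem2, a lipid-sensing receptor that signals through Tyrobp, stood at 533, 552 and 657 CPM. Tlr2 (573, 481 and 635 CPM) had the highest CPM of the Toll-like receptors listed. Tlr13, Tlr4, Tlr7, Tlr8 and Tlr1 also reached a mean of 100 CPM, Tlr1 (89.9, 57.3 and 162 CPM) through replicate 3. Trem1 had no count. Of receptors for dying cells, Axl stood at 849, 649 and 1388 CPM and was highest in replicate 3, Mertk stood at 275, 277 and 199 CPM, and Tyro3 had no count. Timd4, a phosphatidylserine receptor, stood at 121, 131 and 119 CPM.

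Integrins and tetraspanins were led by the tetraspanins Cd53 (1409.7, 1479 and 1527 CPM), Cd63 (1192, 1394 and 1394 CPM) and Cd81 (857, 1008 and 1801 CPM), and by Itgb5 (706, 994 and 1327 CPM). Vcam1, an adhesion molecule, stood at 559, 653 and 779 CPM. Of 25 such genes with a mean of at least 10 CPM, 18 were highest in replicate 3, as were 33.2% of all 8068 genes at that level. In the MS4A family, whose members span the membrane, Ms4a7 stood at 959.8, 1213 and 1332 CPM and Ms4a6b at 763, 717 and 763 CPM. Other abundant membrane proteins were Ly6e (2645, 2422 and 2637 CPM) and the organic anion transporter Slco2b1 (1049, 1437 and 1268 CPM).

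Per kilobase the membrane proteins were led by Cd74 (6157 ± 1662 CPM per kilobase, SD, n = 3), then Tyrobp (2384 ± 189.9) and Fcer1g (2327 ± 94.3), whose ranges overlapped, and then Csf1r (1816 ± 178), which overlapped neither Fcer1g nor Cd68 (1201 ± 18.8). Cd68 and Fcgr3 (1145 ± 151) overlapped each other. Mrc1, the third of these genes by CPM, had 545 ± 58.3 CPM per kilobase, below Cx3cr1 (604 ± 142), and their ranges overlapped. By the median transcript length Laptm5 had rank 8, above Cd74 with rank 10 and Csf1r with rank 15. Mrc1 then had rank 115, above Cx3cr1 with rank 156.

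**Figure D2:**
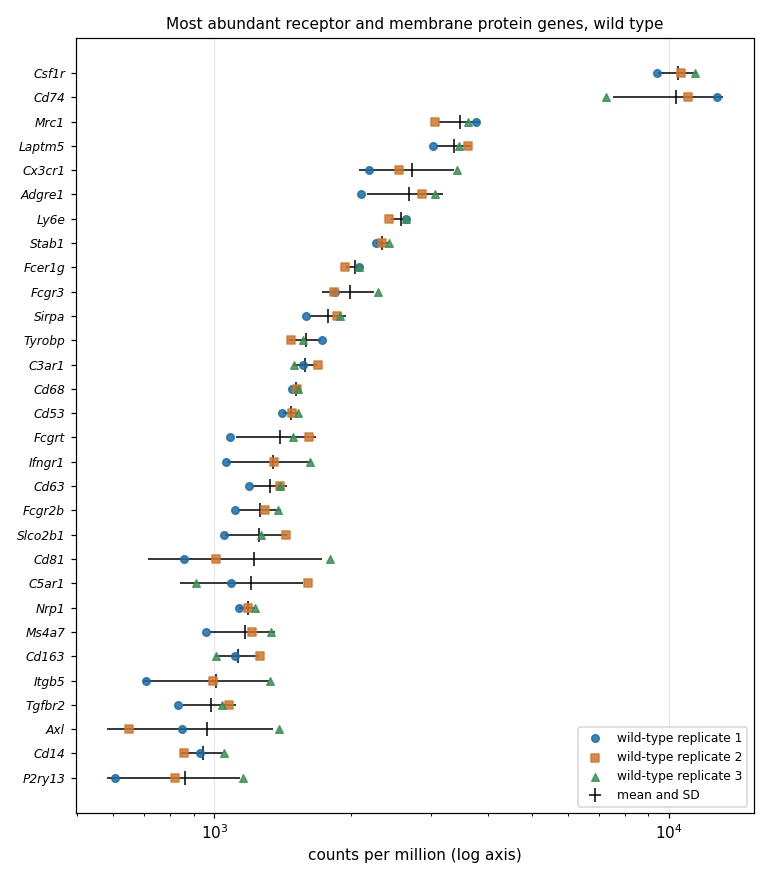
Levels of the 30 receptor and membrane protein genes with the highest mean, in CPM on a log axis, with a symbol for each library and black bars for the mean and SD. Csf1r and Cd74 stand highest, and Cd81, Axl, Itgb5 and P2ry13 show wide gaps, with replicate 3 the highest in each.

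Transcription regulators took a far smaller share of the counts than receptors. None of 122 listed genes reached 1000 CPM, 41 reached 100 CPM and 109 reached 1 CPM, with a median of 49.6 CPM. Mef2c, a MADS-box factor, stood at 669, 671 and 689 CPM, Maf at 773, 574 and 463 CPM, Irf8 at 471, 482 and 504 CPM and Spi1 at 314, 404 and 393 CPM. Mef2c and Irf8 were even across mice, with 676 ± 11.2 CPM and 486 ± 16.6 CPM (SD, n = 3), and Maf was highest in replicate 1.

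Of the 36 lineage factors, 17 reached 100 CPM. They included Irf5 (397, 259 and 330.2 CPM), Mef2a (165, 278 and 288 CPM), Tcf4 (237, 248 and 211 CPM), Fli1 (242, 227 and 221 CPM), Zeb2 (157, 238 and 232 CPM) and Runx1 (144, 146 and 161 CPM). Gata6, which marks peritoneal macrophages, and Myb, a factor of haematopoietic progenitors, had no count. Spic, a factor of red-pulp macrophages, stood at 24.2, 29.6 and 39.4 CPM. Sall1, a factor that defines microglia, stood at 14.8, 19.7 and 26.3 CPM.

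The list of AP-1, EGR and KLF factors and of immediate early regulators was led by Klf6 (478, 534 and 383.4 CPM), Jun (438 ± 38.5 CPM (SD, n = 3)) and Klf3 (391.3, 367 and 268 CPM). Many but not all genes of this list respond to stimulation and to tissue dissociation. Fos stood at 34.6, 148 and 22.4 CPM, highest in replicate 2, and Egr1 at 36.1, 17.0 and 22.03 CPM. Of 25 genes of the dissociation and heat-shock response, 9 reached 100 CPM. Their summed level was 4337, 4195 and 2504 CPM, lowest in replicate 3, and Hspa8, a constitutive chaperone, made up 1814, 1567 and 786 CPM of it.

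Stress, metabolic and nuclear receptor regulators were led by Xbp1, a factor of the unfolded protein response, at 663, 543 and 522 CPM, and by Tsc22d3, a glucocorticoid-induced gene, at 285, 756 and 378 CPM. Tsc22d3 was highest in replicate 2. Nr3c1, the glucocorticoid receptor, stood at 244, 304 and 279.8 CPM and Nfe2l2, which encodes NRF2, at 313, 256 and 311 CPM. The lysosomal regulator Tfe3 was even, at 186, 182 and 182 CPM. Vdr, the vitamin D receptor, had no count. Of the interferon, STAT and NF-kB factors, Stat6 (291, 246 and 273 CPM), Rela (119, 227 and 246 CPM) and Irf9 (205, 171 and 181 CPM) had the highest mean CPM, and Irf7 (274, 95.4 and 158 CPM) and Stat2 (153, 62.2 and 35.3 CPM) were highest in replicate 1.

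Per kilobase Xbp1 (177 ± 23.4 CPM per kilobase, SD, n = 3) led the regulators and did not overlap Spi1 (137 ± 18.2). Spi1, Jun (137 ± 12.1), Irf5 (113 ± 23.7) and Tsc22d3 (109 ± 57.4) followed, and each overlapped its neighbour. Mef2c, first by CPM, had 43.0 ± 0.715 CPM per kilobase, since its merged exons are long. It stood below Maf (73.2 ± 19.1) and Irf8 (68.8 ± 2.35) on that scale only. By the median length of each gene's transcripts the ranks were 176 for Spi1, 205 for Mef2c, 217 for Xbp1, 357 for Irf8 and 1264 for Maf. The order of these regulators therefore depended on the length used.

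**Figure D3:**
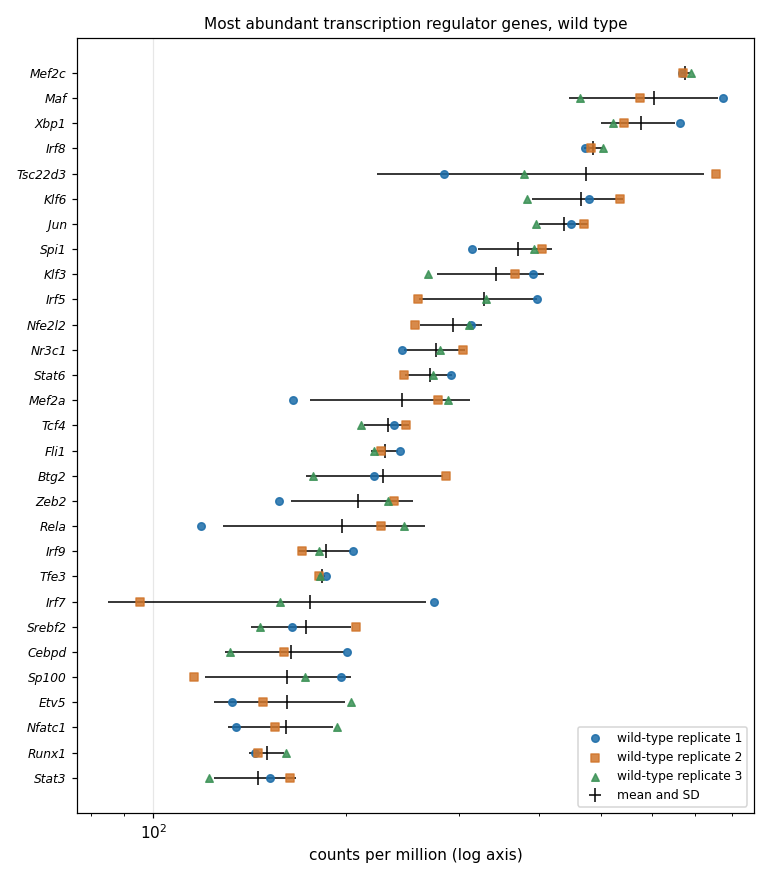
Levels of 29 of the 30 transcription regulator genes with the highest mean, in CPM on a log axis, with a symbol for each library and black bars for the mean and SD. Mef2c and Irf8 show the 3 libraries almost on top of each other, and Tsc22d3 and Irf7 spread widely.

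Genes of secreted and lysosomal factors held the largest summed share of counts of the groups described, and Apoe alone had a mean of 36176 CPM. Their median was only 10.7 CPM, against 133 CPM for the membrane proteins and 49.6 CPM for the transcription regulators. The sum therefore reflects a few very abundant genes and the choice of lists. The 6 lists held 174 genes in the table, of which 24 reached 1000 CPM, 51 reached 100 CPM and 44 had no count in any of the 3 libraries. Their summed level was 141145, 156863 and 161322 CPM, against 96360.3, 101471 and 105847 CPM for the membrane proteins and 13100.3, 12674 and 11816 CPM for the transcription regulators.

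Chemokine ligands were led by Pf4, given above. Ccl12, a ligand of Ccr2, stood at 951, 505 and 249 CPM and was highest in replicate 1. Its mean was 568 CPM, and 373 CPM without replicate 1. Ccl6 (291, 434 and 289 CPM), Ccl24 (349.8, 195 and 191 CPM), Ccl8 (192, 288 and 174 CPM) and Cxcl16 (232, 273 and 276 CPM) followed. Ccl7 (163, 162 and 73.9 CPM) and Ccl2 (86.4, 66.8 and 23.9 CPM) were lowest in replicate 3, and Ccl3 (22.8, 20.5 and 15.04 CPM) and Ccl4 (30.8, 29.6 and 2.94 CPM), which dissociation can induce, were low. Of 14 chemokine genes with a mean of at least 10 CPM, 9 were highest in replicate 1, against 34.3% of all genes at that level. Cxcl12, Cxcl13, Ccl17, Ccl19, Ccl22, Ccl11, Ccl21a and Cxcl3 had no count.

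Cytokine genes were low apart from Grn. Tgfb1 stood at 185, 163 and 48.7 CPM, lowest in replicate 3, and Il16 at 88.6, 146 and 144 CPM. Il1b, the main pro-inflammatory interleukin of myeloid cells, stood at 33.4, 45.8 and 4.55 CPM. Il6, Il12a, Il12b, Il33, Ifnb1, Lif, Csf2, Tgfb2 and Tgfb3 had no count. Of 29 cytokine genes, 3 reached 100 CPM.

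Growth factors were led by Gas6, a ligand of Axl and Mertk, at 1487, 1706 and 1918 CPM. Next came Pros1, protein S, a ligand of Mertk, at 347, 335 and 678 CPM. Igf1, insulin-like growth factor, stood at 273, 282 and 238 CPM. No other listed growth factor reached a mean of 100 CPM, and 11 of 30 had no count, Bdnf and Vegfc among them. Vegfa stood at 6.69, 0 and 0 CPM.

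Complement and coagulation factors other than C1q and F13a1 included C4b, a chain of complement C4, at 1313, 1313 and 1323 CPM. C3 stood at 31.9, 29.1 and 44.9 CPM. C4b has a close copy in the mouse genome, and its reads may be shared with that copy. Properdin, Cfp, stood at 251, 255 and 460.3 CPM and ficolin A, Fcna, at 217, 229.9 and 256 CPM.

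Of 33 genes of proteases and their inhibitors, 10 reached 1000 CPM. Legumain, Lgmn, stood at 2460, 2323 and 2899.7 CPM, and the cathepsins Ctsa, Ctsz and Ctsh at 2137 ± 197 CPM, 1448 ± 183 CPM and 1392 ± 111 CPM (SD, n = 3). Mmp9, a secreted gelatinase, stood at 316, 315 and 189 CPM and Timp2, an inhibitor of such proteases, at 829, 968 and 1031 CPM. Ctsk, Mmp8, Mmp12, Mmp27 and Timp1 had no count. Lpl, lipoprotein lipase, stood at 128, 0 and 118 CPM, so that replicate 2 held not a single read of it.

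Carriers and matrix proteins were led by Apoe, Selenop, Trf and Psap, the precursor of saposins (2495, 1947 and 1446 CPM). Tgfbi, a matrix protein, stood at 1053, 1301 and 1338 CPM, Pltp, a phospholipid carrier, at 657, 849 and 657 CPM, and Cp, ceruloplasmin, at 465, 538 and 410.2 CPM. Fn1, fibronectin, stood at 0, 8.98 and 0 CPM and Spp1, osteopontin, at 87.4, 21.9 and 25.8 CPM. Per kilobase the order of secreted factors was Apoe, Lyz2, C1qb, Cst3, C1qa, C1qc, Ctss and Pf4. Of neighbours in that order, Lyz2 and C1qb, C1qb and Cst3, and C1qc and Ctss overlapped, and Lyz2 also overlapped Cst3. By the median transcript length Cst3 had rank 3, Selenop rank 6, Ctsb rank 9 and Lyz2 rank 11.

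**Figure D4:**
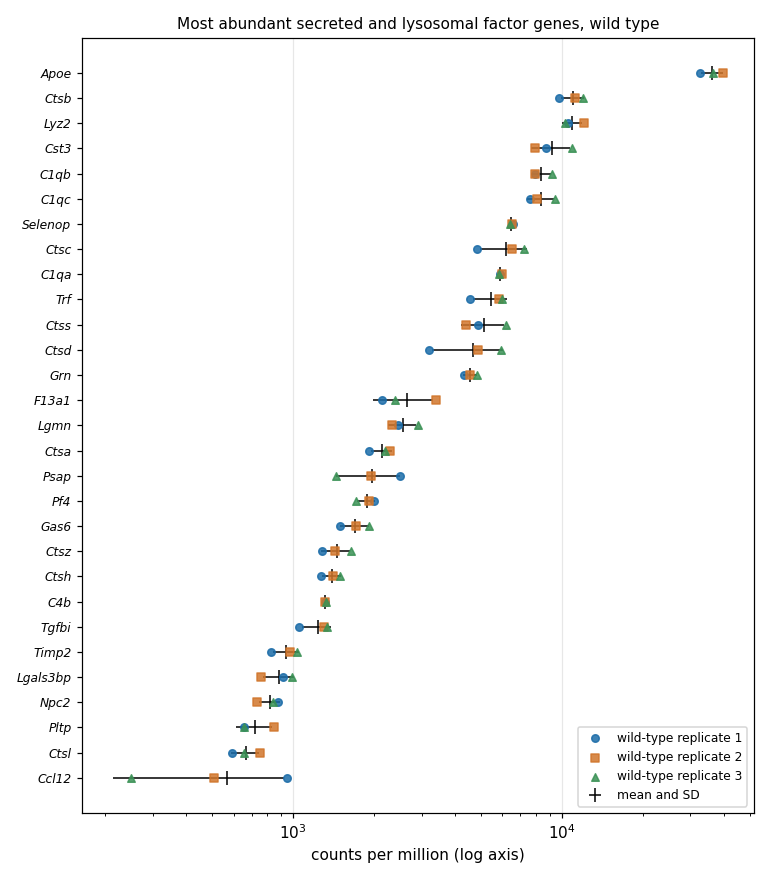
Levels of 29 of the 30 secreted and lysosomal factor genes with the highest mean, in CPM on a log axis, with a symbol for each library and black bars for the mean and SD. Apoe stands apart at the top, Selenop, C1qa and C4b are nearly identical in the 3 libraries, and Ccl12 spreads most widely.

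Most markers of other cell types were at or near 0, with those of microglia as the exception. In a sorted bulk sample a low level of a marker can come from few cells or from little RNA per cell, and these cannot be told apart. All 19 microglial genes were detected, and their summed level was 20934, 22005 and 32496 CPM. Several of them, such as Cst3, Fcrls, Cx3cr1 and Trem2, are also known in border macrophages. Of the genes held to define microglia, P2ry12 stood at 505, 642 and 1273 CPM, Tmem119 at 259, 345 and 819 CPM and Sall1 at 14.8, 19.7 and 26.3 CPM. Siglech stood at 109.6, 115 and 222 CPM, Olfml3 at 321, 409.6 and 772 CPM and Sparc at 113, 260.5 and 616 CPM.

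Each of the 19 microglial genes was highest in replicate 3. Among all 8068 genes with a mean of at least 10 CPM, 33.2% were highest in replicate 3, 32.5% in replicate 2 and 34.3% in replicate 1. Of the 8 border macrophage markers, 2 were highest in replicate 3, 4 in replicate 2 and 2 in replicate 1. Without replicate 3 the mean summed level of the microglial genes was 21673 CPM, against 25145 CPM with it. The part of microglia in the levels of shared genes was not tested.

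Most monocyte and neutrophil markers were sparse, and dendritic cell markers were mixed. Of 13 monocyte genes only Ccr2 reached 100 CPM, while Ly6c2 stood at 7.75, 0 and 0 CPM, Plac8 at 0, 2.65 and 3.22 CPM and Chil3 had no count. Of 12 neutrophil genes 9 had no count, S100a8 and Ly6g among them, and S100a9 stood at 1.19, 0 and 0.186 CPM. Of the dendritic cell genes Flt3 stood at 0, 0 and 0.681 CPM, Xcr1 at 0, 0.0914 and 0.0619 CPM and Zbtb46 at 23.1, 41.2 and 11.1 CPM, and Ccr7 had no count. Of this list of 13 genes, 7 reached a mean of 10 CPM, Fscn1 (75.5, 49.2 and 57.9 CPM), Kmo (42.5, 57.2 and 37.4 CPM), Irf4 (14.6, 37.9 and 40.2 CPM) and Siglech among them. Sirpa and Cd209a, which this list shares with macrophages, stood at 1593, 1861 and 1892 CPM and 91.2, 101 and 122 CPM.

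In the lists of B cells, of T and NK cells and of erythroid cells, 1 gene each reached a mean of 100 CPM: Ighm, Cd4 and Epor. Other genes of these lists were mixed, some low and some without a count. Ighm, the heavy chain of IgM, stood at 371, 517 and 586 CPM (rank 242), while Ms4a1 stood at 0, 6.00 and 11.9 CPM and Cd79a at 0, 2.16 and 6.65 CPM, and Pax5 had no count. Cd79b stood at 59.1, 64.2 and 96.5 CPM, Cd22 at 37.5, 63.5 and 50.4 CPM and Ighd at 36.8, 1.28 and 10.6 CPM. Igkc, a light chain, stood at 0, 34.0 and 19.3 CPM. Of 15 B cell genes 5 reached a mean of 10 CPM and 5 had no count. Cd4 stood at 71.0, 188 and 136 CPM, while Cd3d, Cd3e and Cd3g stood at 5.56, 0.975 and 5.35 CPM, at 13.5, 0 and 5.35 CPM and at 17.0, 0 and 2.79 CPM. Replicate 2 therefore held the highest Cd4 level and the lowest levels of these CD3 genes.

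Epor, the erythropoietin receptor, stood at 109, 148 and 99.0 CPM, while Hbb-bs, a beta globin gene, stood at 2.49, 1.34 and 77.5 CPM, Hba-a1 at 2.32, 0.761 and 54.4 CPM, and Klf1 had no count. Globin levels were thus far higher in replicate 3 than in the others, and the near-identical globin copies cannot be told apart. Platelet genes other than Pf4 were near 0, with Ppbp at 3.04, 0 and 6.44 CPM and Itga2b at 0, 0 and 13.6 CPM. Of 11 mast cell and basophil genes 9 had no count.

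Most vascular and stromal markers were close to 0. Of 16 endothelial genes 10 had no count, Cldn5, Flt1 and Tek among them. Pecam1 stood at 0, 0 and 4.49 CPM and Cdh5 at 0, 2.56 and 0 CPM, while Egfl7 stood at 48.5, 63.6 and 73.3 CPM and Bsg, a broadly expressed gene of the list, at 478, 554 and 648 CPM. Mural genes summed to 6.08, 0.761 and 12.2 CPM, and of these Rgs5 and Kcnj8 had no count. Among fibroblast genes Col1a1 stood at 0, 1.31 and 0 CPM, Dcn at 0, 10.4 and 0 CPM and Ptgds, which other cells also make, at 78.1, 32.5 and 59.6 CPM.

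Most glial and neuronal markers were low. The exceptions were in the oligodendrocyte list, where 3 of 14 genes, Trf, Cnp and Mbp, reached a mean of 100 CPM. Gfap stood at 5.05, 0 and 2.197 CPM, Slc1a3 at 30.2, 0 and 60.1 CPM, and Aqp4 and Gja1 had no count. Among oligodendrocyte genes Mbp stood at 43.0, 163 and 139.5 CPM and Cnp at 175, 80.9 and 155 CPM, while Mog stood at 0, 0 and 0.805 CPM and Mal, Ermn, Opalin and Sox10 had no count. Trf, which that list also holds, made up nearly all of its summed level. Genes of oligodendrocyte precursors summed to 9.66, 0.0609 and 6.96 CPM. Neuronal genes summed to 27.5, 8.10 and 19.5 CPM, with Snap25 at 8.40, 0 and 3.19 CPM.

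Choroid plexus genes were found almost wholly in a single mouse. Ttr, the transthyretin that choroid plexus epithelium makes in great amounts, stood at 337, 1.64 and 0 CPM, and Enpp2, autotaxin, at 178, 0 and 7.52 CPM. Kl stood at 7.44, 0 and 0 CPM and Folr1 at 3.99, 0 and 0 CPM, while Otx2, Clic6 and Foxj1 had no count. The list's summed level was 526, 1.64 and 7.52 CPM, and its mean fell from 178 CPM to 4.54 CPM without replicate 1.

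**Figure D5:**
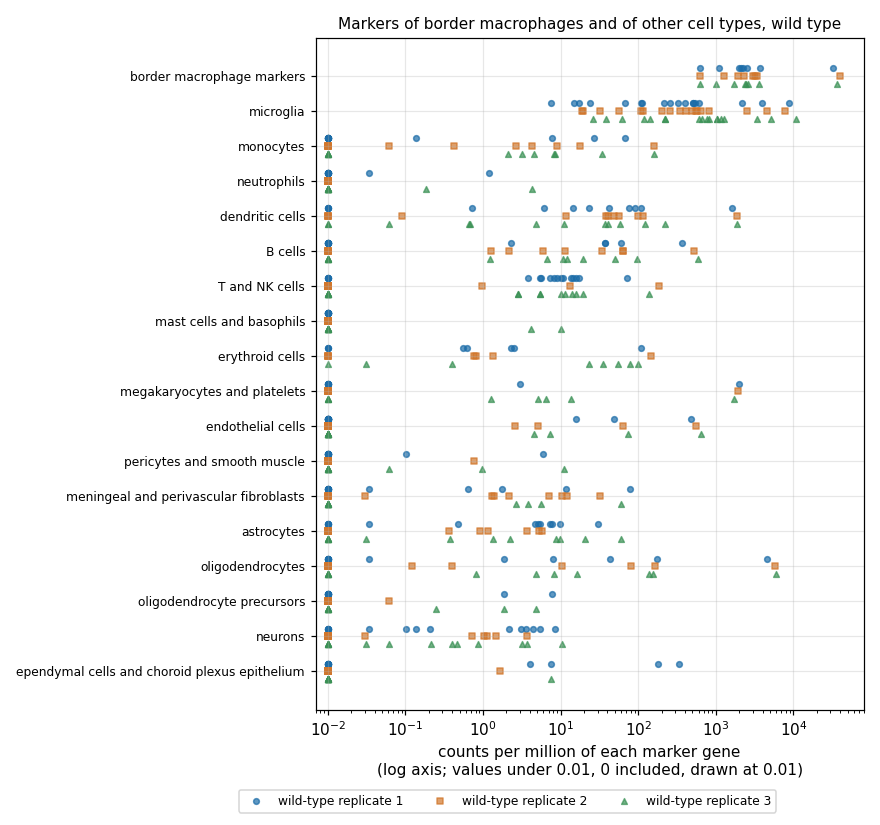
Each symbol is a marker gene in a library, in CPM on a log axis, by cell type, with values under 0.01 CPM drawn at 0.01. Border macrophage and microglial genes fill the right side, most genes of the other lists sit low or at 0, and the choroid plexus genes reach past 100 CPM in replicate 1 alone.

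The 3 mice also differed in whole groups of genes. Replicate 1 was the highest library for 79 of 87 ribosomal protein genes with a mean of at least 10 CPM, for 9 of 9 mitochondrially encoded genes, for 12 of 14 translation factors and for 23 of 27 interferon-response genes. The share over all genes of that level was 34.3%. Ribosomal protein genes summed to 17018, 13139 and 13052 CPM and interferon-response genes to 8801, 6217 and 6826 CPM. Among the latter Ifit3, an antiviral RNA-binding protein, stood at 329.8, 189 and 179 CPM, Rtp4 at 403, 215 and 203 CPM and Ifi47, an interferon-induced GTPase, at 459.8, 248 and 219 CPM.

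Replicate 3 was the highest library for 19 of 33 lysosomal genes with a mean of at least 10 CPM and for each of the microglial genes. The share over all genes of that level was 33.2%. Ctsd stood at 3203, 4845 and 5901 CPM. The widest ratios between libraries among genes with a mean of at least 100 CPM, after Ttr, were those of Sparc, Plxdc2 (48.1, 85.4 and 245 CPM), Iigp1 (217, 48.5 and 131 CPM), Sqle (42.5, 189 and 108 CPM), Rubcn (46.2, 205 and 80.9 CPM), Trim30a (278, 64.1 and 152 CPM), Pfkfb4 (139, 51.6 and 218 CPM), Ccl12 and Tgfb1. Of the 97 genes at that level that were named by the rule given below, 8 had a mean that moved by over 1.5 times without 1 library. These were Ttr (0.811 CPM without replicate 1), Trim30a (107 CPM without replicate 1), Sqle (75.3 CPM without replicate 2), Rubcn (63.7 CPM without replicate 2), Sparc (189 CPM without replicate 3), Plxdc2 (67.4 CPM without replicate 3) and Tmem119 (305 CPM without replicate 3), beside Ccl12. Iigp1 and Trim30a are interferon-inducible, and Sqle is an enzyme of cholesterol synthesis. Of the 1799 genes at that level, 197 differed by more than 2-fold between the highest and the lowest library. Choroid plexus genes went with replicate 1 and microglial and globin genes with replicate 3, and their part in the other differences was not tested.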

How the data were processed

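RNA from sorted CNS-associated macrophages of individual mice was sequenced after SMARTer Ultra Low Input cDNA synthesis from 500 pg of total RNA and Nextera XT library preparation, which keep no strand, in 1 batch, per the labels' protocols. The authors deposited whole-number read counts per gene symbol, and the submitters' processing notes name STAR 2.7.8a, featureCounts 2.0.2 and bcl2fastq 2.20 as tools. No source used here gives the build, the annotation or the strand setting, so overlapping, antisense and near-identical genes cannot be separated. Every line of the table has a gene name.

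Only the 3 wild-type columns of 53546 genes were read for levels. Counts were scaled by library total and TMM factors (edgeR 4.0.16 in R 4.3.3, filterByExpr with a minimum count of 10 and total of 15), and ranked by mean CPM. No group was compared and no test was run. Exon lengths came from GENCODE M21, which matched 96.8% of genes with a count, holding 99.1% of counts. Levels and spread were checked on simulated counts. At these depths 1 CPM is 28.7 to 32.9 counts by library totals without TMM factors.

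Genes named were the 8 markers, the 30 most abundant, the 10 highest of each of 3 classes, the 3 highest of each list, the 4 highest and first-listed markers of each other cell type and the 10 most uneven above 100 CPM. Some genes that the rule takes are not reported here, in text or figures. Other genes in the text were picked with their values in view. The lists were chosen with earlier results of these data known. C5ar1, Thbd, Plaur and F3 were taken off the secreted lists and Cd5l and Lgals3 off the membrane lists afterwards, as misplaced. Alternatives were library totals, DESeq2 1.42.0 size factors, TMM over 10 libraries, no count filter, no mitochondrial genes, the median, CPM per kilobase and each replicate left out. Figures were drawn with matplotlib 3.10.9.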

Additional observations from a re-analysis of the deposited data

How the results depend on the processing

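No paired analysis was possible because the description covers a single genotype and no groups were compared. The mean CPM of the 164 genes named by rule changed by at most 2.202% with another scaling, no filter or no mitochondrial genes. With a replicate left out, the mean moved by over 1.5 times for 8 of the 97 named genes with at least 100 CPM and for 53 of the 67 below, and with the median it did so for 39 of the 164. The rank per kilobase differed from the rank by CPM by more than the spread of ranks between libraries for 78 of the 164 and not for 86. The share of CPM in the 50 most abundant genes was 27.5%, and 27.9% with medians over the libraries; the cause was not tested. The common coefficient of variation estimated by edgeR was 0.506 over 9688 genes, 0.232 over the 1797 genes with at least 100 CPM by library totals, and 0.506 to 0.531 with a replicate left out. Genes at 1 CPM or more in every library numbered 9061, and 9419 to 9743 with a replicate left out. The 50 most abundant genes shared 48 to 50 with the reported ones when a replicate was left out, 37 per kilobase of merged exons and, as an alternative chosen after seeing the data, 41 per kilobase of the median transcript. Summed levels per kilobase were not computed, as the unit differs. Levels from 1 to 10 CPM are limited by the spread between libraries, a median coefficient of variation of 95.6%.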

Other observations

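Genes of iron and haem handling formed a further abundant group. Of 16 listed genes 11 reached 100 CPM, and their summed level was 19237, 20656 and 20947 CPM in replicates 1, 2 and 3. Slc40a1, the iron exporter ferroportin, stood at 456, 782 and 785 CPM, Slc11a1, an iron transporter of phagosomes, at 278, 371 and 509.6 CPM, and Hmox1, the haem-degrading oxygenase, at 133, 180.4 and 205 CPM. Tfrc, the transferrin receptor, stood at 12.05, 42.3 and 31.6 CPM, and Hpx, haemopexin, had no count. MHC class I genes were more even than those of class II, with a sum of 11685, 11926 and 12626 CPM over 14 genes.

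Cell cycle genes were low. Of 23 listed genes only 1 reached 100 CPM, which was Tubb5, a tubulin (142, 146 and 140.3 CPM). Mki67, a marker of dividing cells, stood at 0, 0.0305 and 0 CPM and Top2a, a topoisomerase of dividing cells, at 0, 0 and 49.2 CPM. Top2a, Ccnb1 (0, 0 and 18.7 CPM), Ccnb2 (0, 0 and 27.2 CPM), Plk1, Bub1, Rrm2 and Ube2c of the list had reads in replicate 3 alone, and Birc5 (0, 5.21 and 20.02 CPM), Cdc20 and Ccna2 were highest there. Tyms (27.1, 8.22 and 4.73 CPM) and Aurkb (19.0, 7.04 and 5.08 CPM) were highest in replicate 1. The list summed to 421, 488 and 710.2 CPM. Of its 13 genes with a mean of at least 10 CPM, 7 were highest in replicate 3, 4 in replicate 2 and 2 in replicate 1. The share highest in replicate 3 over all genes of that level was 33.2%. Replicate 3 also had more genes with a count, 14827 against 13639 and 13670 in replicates 1 and 2.

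A gene could be well represented in a pair of mice and lack any read in the remaining mouse. This held for 138 genes that reached 10 CPM in both of the other libraries, a level worth 287 to 329 reads by library totals without TMM factors. Of these 70 lacked reads in replicate 1, 52 in replicate 2 and 16 in replicate 3, the Y-linked genes Ddx3y (77.3, 45.5 and 0 CPM) and Eif2s3y (51.8, 32.0 and 0 CPM) among the last. Besides Lpl, examples chosen after their values were seen were Ciao3 (0, 50.6 and 62.2 CPM), Vps16 (0, 35.6 and 65.0 CPM) and Wdfy1 (0, 37.1 and 53.1 CPM). Among all genes with a mean of at least 10 CPM, 1.76% had no read in at least 1 library, and among those with at least 1 CPM 17.9%. For genes that are not Y-linked the cause was not tested.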
